A study of Homo sapiens with 4 samples.

Results

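Genes that hold back ERK signalling were followed in EGF-treated HuCCT1 cells: the dual-specificity phosphatases DUSP1, DUSP4, DUSP5, DUSP6 and DUSP7, the Sproutys SPRY1, SPRY2 and SPRY4, and the SPREDs SPRED1 and SPRED2. They were taken as a family by name, with no threshold on their values, though earlier results of these data were known. Every array probe whose accession belongs to 1 of them was taken. This gave 11 probes for 10 genes, out of 34127 probes and 19483 named genes on the array. SPRY4 had 2 probes and each other gene had 1.

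HuCCT1 cells come from a human intrahepatic cholangiocarcinoma, a cancer of bile duct epithelium. All 4 groups were HuCCT1 cells transfected at 30 nM, given 5 ng/ml EGF 24 h later in medium with 0.1% serum and harvested after 24 h with EGF. Cells without EGF were not analysed here. The groups were Pre-miR-376c (a mimic of mature miR-376c), Pre-miR negative control, siGRB2 (an siRNA against GRB2, named siGRB2-2 in the methods) and siRNA negative control (a non-silencing siRNA), with 1 one-color Agilent array each. The array comparison addressed which mRNAs followed the microRNA and which followed loss of GRB2, the adaptor that links the activated EGF receptor to RAS.

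EGF receptor signalling reaches ERK through GRB2, SOS, RAS, RAF and MEK. Active ERK switches on genes whose products then damp the same pathway: dual-specificity phosphatases take the activating phosphates off ERK, Sproutys act between receptor and RAF, and SPREDs bring the RAS-inactivating protein NF1 to the membrane. mRNA of several of these genes is widely used as a reading of ERK output.

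The mimic is shown first because its seed, bases 2 to 8 in capitals, is what the treatment added to the cells. The sequences are mature human microRNAs from RefSeq (GRCh38.p14, 5′ to 3′), on the plus strand of chromosome 14. The seed of miR-376c-3p belonged to no other mature human microRNA in that table, whereas its close relatives miR-376a-3p and miR-376b-3p share a seed of their own (miR-376a-3p comes from 2 loci, of which 1 is given).
miR-376c-3p, chr14:101039732-101039752: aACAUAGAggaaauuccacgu
miR-376a-3p, chr14:101040825-101040845: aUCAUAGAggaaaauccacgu
miR-376b-3p, chr14:101040497-101040518: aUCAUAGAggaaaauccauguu
Target sites of this seed in the 10 genes were not analysed here.

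Every level below is log2 of the processed probe signal minus the log2 of that array's 75th percentile signal, so that 0 is the 75th percentile, and a difference of 1 is 2-fold. Levels were compared between arrays for 1 probe at a time, and each summed marker signal below is for comparing the arrays within that list alone. The scanner software gave a combined error of about 0.20 for a log2 difference of 1 probe between arrays (0.22 to 0.24 for the second SPRY4 probe), which covers the array and not the culture. With 1 array per condition there was no replicate, and no test between conditions or SD was possible. The 75th percentile signal ranged from 1719 on the siRNA negative control array to 2689 on the Pre-miR negative control array, with 21824 and 24133 probes well above background on them. The biliary epithelial markers were well above background on all 4 arrays for 7 of 7 genes, with a summed signal of 764.9 to 980.7 times the 75th percentile signal, while the hepatocyte markers ALB, APOB and TTR and the fibroblast markers COL1A2, COL3A1 and PDGFRB were not well above background on any array. The remaining gene of each list, APOA1 (1 of its 2 probes) and COL1A1, was above background on all 4, and the summed signals were 0.0625 to 0.0919 times the 75th percentile signal for the hepatocyte list and 0.105 to 0.233 for the fibroblast list. The 3 leukocyte genes PTPRC, CD14 and CD68 gave signals above background on all 4 arrays, with a summed signal of 0.836 to 1.03 times the 75th percentile signal. For PTPRC this rested on part of its probes, as others were not well above background on any array. Of 3 endothelial genes, CDH5 and VWF were above background on all 4 arrays and PECAM1 on the control arrays alone, with a summed signal of 0.202 to 0.282. PECAM1 too had probes that were not well above background on any array.

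GRB2, the targeted gene, was covered by 1 probe with 1 spot. Its level was 0.62 in Pre-miR negative control, -0.10 in siRNA negative control, 0.07 in Pre-miR-376c and -0.65 in siGRB2. The siGRB2 array had the lowest GRB2 level, and the control arrays differed from each other by 0.72, more than either treated array differed from its own control. On the siGRB2 array it stood at 68.2% of siRNA negative control and at 41.4% of Pre-miR negative control.

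The feedback genes varied over the 4 arrays about as much as other probes did, with a median range of 0.62 beside 0.56 for all probes. DUSP1 varied by 0.07. DUSP5 was lowest with siGRB2 (63.1% of Pre-miR negative control and 81.9% of siRNA negative control), and so was SPRED1 (76.1% and 83%). The siGRB2 array was lowest for 15.2% of all probes. SPRY1, SPRY2 and SPRY4 were lower with siRNA negative control than with any other transfection, and that array was lowest for 45.8% of all probes. Relative to Pre-miR negative control, 3 of the 4 Sprouty probes were lower with Pre-miR-376c by more than the scanner error. All 4 were within it with siGRB2. Differences as large as this error were common on the Pre-miR-376c array. There, all measured probes had a median absolute difference of 0.20 from the same control, beside 0.17 on the siGRB2 array. SPRY1 and SPRY2 with Pre-miR-376c lay near the 25th percentile of all probes (-0.24). Of the 11 feedback probes, 10 were well above background on all 4 arrays, covering 9 of the 10 genes. The exception was DUSP7, a cytoplasmic ERK phosphatase, whose probe was not well above background on any array and gets no fold. None of the differences between a treated and a control array reached 2-fold for these probes except for 1 probe of SPRY4. The plot of levels by array shows them all.

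Among the nuclear phosphatases, DUSP1, which acts on ERK, p38 and JNK, was read by 10 spots per array. Its level was -0.95 in Pre-miR negative control, -0.94 in siRNA negative control, -1.01 in Pre-miR-376c and -0.96 in siGRB2. The whole range was 0.07. The SD between single spots of this probe on 1 array was 0.06 to 0.09. Each level is a mean of 10 spots, which varies less than a single spot, so this SD is not the error of the range. For siGRB2 minus siRNA negative control, DUSP1 was at -0.31 with a median shift and at 0.68 with normexp with all spots, where the all-probe medians were -0.13 and 1.06. DUSP4, another nuclear phosphatase of ERK and JNK, was at 1.69, 1.49, 1.55 and 1.63 in the same order of arrays. Its range of 0.20 equalled the scanner error of a difference, with the control arrays at the extremes and both treated arrays between them, except with a median shift or normexp with all spots, where siGRB2 was lowest.

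DUSP5, a nuclear phosphatase specific for ERK, was lower with siGRB2 than with each other transfection. Its level was 1.21 in Pre-miR negative control, 0.84 in siRNA negative control, 1.24 in Pre-miR-376c and 0.55 in siGRB2. The siGRB2 level was below each of the other 3: the difference was -0.29 from siRNA negative control, -0.66 from Pre-miR negative control and -0.69 from Pre-miR-376c, or 81.9%, 63.1% and 61.9% of them. The difference from its own control exceeded the scanner error of 0.20 but not the -0.38 between the control arrays. It lay near the 25th percentile of all probes for that comparison (-0.25). The difference from Pre-miR negative control lay below the 5th percentile (-0.46). With Pre-miR-376c, DUSP5 differed by 0.03 from Pre-miR negative control. In bulk RNA, fewer cells that express a gene and less RNA of it per cell cannot be told apart. DUSP5 was lowest with siGRB2 under each of 7 other ways of scaling or background correction. These ways, also counted below, are not separate evidence. Keeping flagged spots could not change the order for DUSP5, the Sproutys or the SPREDs, which had no flagged spot. The deposited values, the median shift and the percentile over detected probes in effect moved each array by a constant.

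DUSP6, the cytoplasmic ERK phosphatase, is often read as a marker of ERK activity. Its level was 2.86 in Pre-miR negative control, 3.31 in siRNA negative control and 2.74 in siGRB2. On the Pre-miR-376c array its only spot carried the scanner's non-uniformity flag and was left out, and with the spot kept the level was 2.60. Relative to siRNA negative control, siGRB2 was lower by 0.57 (67.5%), but relative to Pre-miR negative control it differed by -0.12, within the scanner error. The control arrays were 0.45 apart, so the siGRB2 value for DUSP6 depended on the control chosen. With the marked spot kept, Pre-miR-376c was 0.26 below Pre-miR negative control, at 83.5%, and 0.71 below siRNA negative control, at 61.2%. DUSP6 and DUSP1 would then be the 2 probes lower on both treated arrays than on both control arrays, 2 of 10 member probes where 13.6% of all probes were.

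The Sproutys are inducible adaptors that bind GRB2 and CBL and restrain RAS and RAF. SPRY1 was at -1.24 in Pre-miR negative control, -1.90 in siRNA negative control, -1.47 in Pre-miR-376c and -1.35 in siGRB2. SPRY2 was at -0.61, -1.44, -0.84 and -0.73 in the same order. Both genes had the same order of arrays: the Pre-miR negative control highest, siGRB2 next, Pre-miR-376c next and siRNA negative control lowest. SPRY4 followed this order with its first probe (A_24_P269062), at -1.47, -2.65, -1.87 and -1.60. Its second probe (A_33_P3338423) was at -4.18, -4.55, -4.29 and -4.18, so that siRNA negative control was again lowest but the range was 0.38 against 1.19 for the first probe.

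The Sprouty differences therefore depended on the control. Against siRNA negative control, siGRB2 was higher by 0.55 for SPRY1, 0.71 for SPRY2, and 1.05 and 0.38 for the SPRY4 probes, and Pre-miR-376c by 0.43, 0.60, 0.79 and 0.26. Against Pre-miR negative control, Pre-miR-376c differed by -0.24, -0.23, -0.40 and -0.10, and siGRB2 by -0.12, -0.12, -0.13 and 0.01. For Pre-miR-376c the sign thus turned with the control, beyond the scanner error on both sides for SPRY1, SPRY2 and the first SPRY4 probe. For SPRY1 and SPRY2 this depended on the scaling. Against Pre-miR negative control they lay within the error with a median shift (-0.12 for both) and the deposited values (-0.199 and -0.196). SPRY1 also did so with quantile normalization (-0.198) and normexp (-0.158). As first given, the SPRY1 and SPRY2 values lay near the 25th percentile of all probes for Pre-miR-376c minus Pre-miR negative control (-0.24). For siGRB2 the 4 differences from Pre-miR negative control lay within the scanner error, so no opposite direction was shown. The control arrays themselves differed by 0.66, 0.83, 1.19 and 0.37, which was more than either treated array differed from Pre-miR negative control. Against Pre-miR negative control the second SPRY4 probe lay near 0 and turned sign with the scaling: with a median shift it was at 0.0085 in Pre-miR-376c and -0.0036 in siGRB2, with quantile normalization it was at -0.0246 in siGRB2 and with the percentile over probes detected on all arrays at -0.0455, and with normexp background correction it was at 0.0756 in Pre-miR-376c. Normexp also turned siGRB2 minus Pre-miR negative control for SPRY1 (1.02), SPRY2 (0.21) and the first SPRY4 probe (1.22) and put the second SPRY4 probe at 3.19, where the median over all probes was 1.14. The 3 signs did not turn once 7 spots of very high local background were left out, and the second SPRY4 probe was then at 0.18.

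The siRNA negative control array was the lowest of the 4 for 6 of the 9 probes measured on all arrays (DUSP4, SPRY1, SPRY2, both SPRY4 probes and SPRED2), as it was for 45.8% of all 21239 probes. It was highest for 1 of the 9 (DUSP1), against 29.6% of all probes. It was the lowest array for all 4 SPRY probes under 5 of the 7 other ways of processing, and for 3 of them under normexp with and without spots of very high local background. The lower 75th percentile signal of this array moved with these values, and its part in them was not tested.

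The SPREDs are membrane proteins related to the Sproutys. SPRED1, whose loss causes Legius syndrome, was at -0.62 in Pre-miR negative control, -0.75 in siRNA negative control, -0.65 in Pre-miR-376c and -1.02 in siGRB2. It was lowest with siGRB2, by 0.27 against siRNA negative control and by 0.39 against Pre-miR negative control, except under normexp with all spots, where siGRB2 was highest. The first difference lay near the 25th percentile of all probes (-0.25), and the second between the 5th (-0.46) and the 25th (-0.14). SPRED2 was at -2.40, -2.97, -2.24 and -2.01 in the same order of arrays. It was highest with siGRB2, by 0.96 against siRNA negative control and 0.39 against Pre-miR negative control, and the siGRB2 array stayed highest and the siRNA negative control array lowest under all 7 other ways of processing. The pair of SPREDs thus stood on opposite sides on the siGRB2 array, at 76.1% and 131% of Pre-miR negative control. With Pre-miR-376c, the differences from Pre-miR negative control were -0.03 for SPRED1 and 0.15 for SPRED2, both within the scanner error.

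Over the family, 0 of 9 measured member probes were at least 2-fold apart for Pre-miR-376c against its own control, where 3.04% of all probes were. Between siGRB2 and siRNA negative control it was 1 of 10, the first SPRY4 probe at 2.07-fold, against 9.82% of all probes. That call lay just over the limit and was lost when arrays were scaled on the median or by quantiles, with the deposited values and with probes averaged per gene. Across the other control, 0 of 9 were 2-fold apart for Pre-miR-376c (7.26% of all probes) and 0 of 10 for siGRB2 (2.94%). Between the control arrays 1 of 10 was, again this SPRY4 probe, against 9.17% of all probes. With 9 or 10 probes, these counts are near the background in each comparison.

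The median difference of the member probes was -0.10 for Pre-miR-376c minus Pre-miR negative control, beside -0.03 over all probes. For siGRB2 minus siRNA negative control it was 0.26 beside 0.15. With the controls exchanged, the medians were 0.41 beside 0.09 for Pre-miR-376c and -0.12 beside 0.04 for siGRB2. The SD of single probes over the whole array was 0.34 to 0.58 in these comparisons. Scaling on the array median moved the all-probe median of siGRB2 minus siRNA negative control from 0.15 to -0.13, and that of Pre-miR-376c minus Pre-miR negative control from -0.03 to 0.09, so small differences are best read against these values. The comparisons share control and treated arrays and do not stand as separate evidence.

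By order of arrays, 1 of 9 probes (DUSP1, by as little as 0.02) was lower on both treated arrays than on both controls, where 13.6% of all probes were. SPRED2 alone was higher on both, 1 of 9 against 21.3%. Both treated arrays lay between the controls for 4 of 9 (DUSP4, SPRY1, SPRY2 and the first SPRY4 probe), against 24.9% of all probes. Taken singly, Pre-miR-376c lay between the controls for 6 of 9 (43.4% of all probes) and siGRB2 for 4 of 9 (38.3%). The siGRB2 array was the lowest for 2 of 9 (DUSP5 and SPRED1), against 15.2% of all probes. The median range of a member probe over its arrays (3 for DUSP6) was 0.62, beside 0.56 for all probes. Without the siRNA negative control array it was 0.23, beside 0.31, and DUSP5 then had the widest range of the family, 0.69.

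Other genes of the pathway were read from 3 lists. Of 9 further MAP kinase phosphatases and family members, 8 had a probe. Their median differences were -0.09 (Pre-miR-376c) and 0.62 (siGRB2) against their own controls, and 0.43 and 0.15 with the controls exchanged. None of 11 probes was 2-fold apart from Pre-miR negative control with either treatment. Against siRNA negative control, DUSP9 was lower with siGRB2 (-1.97) and with Pre-miR-376c (-2.08), and DUSP2 higher with Pre-miR-376c (1.13). DUSP9 and DUSP2 are named because they crossed the limit. SPRY3, also in this list, had another order of arrays than SPRY1, SPRY2 and SPRY4. Its probe above background on all 4 arrays was at -2.39 in Pre-miR negative control and -2.38 in siRNA negative control. It was at -3.01 in Pre-miR-376c and -2.64 in siGRB2. The other SPRY3 probe was well above background on 2 arrays alone.

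Of 12 other ERK output genes with 16 probes, among them MYC, EGR1, FOSL1 and the ETV factors, the median differences were -0.05 and -0.04 against the own controls, and -0.07 and -0.11 with the controls exchanged. Against Pre-miR negative control no probe was 2-fold apart. Against siRNA negative control, CCND1, the cyclin of the G1 phase, was higher with siGRB2 (1.06) and Pre-miR-376c (1.04), 1 of 4 ETV1 probes was lower with siGRB2 (-1.17) and EPHA4 was lower with Pre-miR-376c (-1.15). These genes too were named after their values were seen.

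The third list held 12 partners and other brakes of the pathway with 16 probes, at medians of -0.29 and 0.43 against the own controls, and 0.27 and -0.16 with the controls exchanged. No probe was 2-fold apart from Pre-miR negative control. Higher than siRNA negative control by 2-fold or more were MAPK3 (1.41 in siGRB2 and just over the limit in Pre-miR-376c) and, with siGRB2, 1 of 3 NF1 probes (1.18) and 1 of 2 CBLB probes, for which the difference is a lower bound of 1.44. MAPK3, a kinase that DUSPs dephosphorylate, was at -1.96, -3.56, -2.55 and -2.14 in the order Pre-miR negative control, siRNA negative control, Pre-miR-376c and siGRB2. The siRNA negative control array was thus far below the others for MAPK3, and it was also lowest for SPRY1, SPRY2 and SPRY4, as it was for 45.8% of all probes.

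NF1, the RAS-inactivating partner of the SPREDs, was lowest on the siRNA negative control array for all 3 of its probes, where 45.8% of all probes were. Against Pre-miR negative control its probes went different ways with siGRB2, at -0.56, 0.49 and -0.13. CBL, the ubiquitin ligase bound by Sproutys, ran the other way, at -0.03, 0.66, 0.09 and -0.12 in the same order of arrays, and TESK1, a kinase that binds SPRY4, was at 2.95, 2.32, 2.47 and 2.75. No gene of the 3 lists was at least 2-fold apart in the same direction in 3 or more of the 4 comparisons.

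The genes whose array profile came closest to that of DUSP6, by root mean square difference of centred log2 levels over the 3 arrays with a DUSP6 value, were PPP2R5E (0.0024), VWA8 (0.0041) and GTF2A2 (0.0050), of 17243 candidate probes. Over 3 arrays and so many candidates a close match is easily had, and nothing is read from it.

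Promoter windows (250 bases before to 50 after a start site, RefSeq, GRCh38.p14) were searched on both strands for motifs of factors that ERK signalling can activate. The motifs were the cAMP response element TGACGTCA, an AP-1 pattern TGANTCA and an ETS site CCGGAAG. N stands for any base, so a match to TGANTCA need not be a strict AP-1 site. Windows were given for 8 of the 10 genes, 12 windows in all. DUSP4 and DUSP5 had no window and were not searched. All matches found are shown, with the motif in capitals. A link between a match and the course of its gene over the arrays was not tested.
DUSP1, cAMP response element, chr5:172771302-172771331, minus strand: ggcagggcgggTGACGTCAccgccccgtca
SPRED2, AP-1, chr2:65366767-65366795, minus strand: taaccctcggaTGACTCAtccggtacaat
SPRED2, AP-1, chr2:65366729-65366755, minus strand: gtcaaggagacTGAATCAtatatgggg
SPRY1, ETS, chr4:123398308-123398336, plus strand: gccctccgcagCCGGAAGggggccgcggg
Each motif was thus found in 1 of the 12 windows. Among 35116 promoter windows of the same length, 1.85% held the cAMP response element, 7.71% the AP-1 site and 10.3% the ETS site. A match is a run of letters, not a measured binding site.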

How the data were processed

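The authors hybridized Cy3-labelled RNA of 4 transfections to 1 slide of a human 44 K design, read in 1 scan, and deposited each spot's intensity as written by Agilent Feature Extraction (10.7). The authors also deposited log2 values normalized to the 75th percentile, which matched the log2 intensities averaged per probe, less a constant, within 0.01 for 99.45% to 99.54% of probes per array. Here, log2 processed intensity was shifted to the array's 75th percentile over non-control spots, flagged spots (289 to 329 per array) were left out, and spots of 1 probe were averaged (pandas 2.3.3 and numpy 2.4.6 under Python 3.11.15). No spot was saturated. Alternatives used R (4.3.3) and limma (3.58.1). A probe counted as well above background by the scanner flag on more than 0.5 of its spots. A probe above background on 1 array of a pair gave a bound. Accessions gave a RefSeq symbol for 25422 of 34127 probes (74.5%). The calculation was tested on simulated data. By rule, the genes named were all members, GRB2, direct partners (1 is not reported here), listed genes 2-fold apart in 3 or more comparisons (none was), and the 3 closest to DUSP6. DUSP2, DUSP9, SPRY3, CCND1, ETV1, EPHA4 and CBLB were named outside it, after their values were seen. The 10 genes and the lists were chosen with earlier results of these data known.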

Additional observations from a re-analysis of the deposited data

How the results depend on the processing

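With 1 array per condition, no culture-to-culture spread is known. The scanner error is a value given by the software and does not include that spread. The median SD between spots of 1 probe was 0.0576 to 0.0615 per array, so the scanner error is not a spread measured here. No paired analysis was possible because 1 array stood for each group. DUSP7 was limited by signal over background. With a median shift, the member median of siGRB2 minus siRNA negative control was -0.025 and 0 probes were 2-fold apart. The count was also 0 with quantile normalization, the deposited values, the mean per gene and a 3-fold limit, 2 with the percentile taken over probes detected on all 4 arrays, and 3 with a 1.5-fold limit. With a 1.5-fold limit it was 3 for Pre-miR-376c minus siRNA negative control and 1 for siGRB2 minus Pre-miR negative control. The share of all probes at 1.5-fold was not determined, so nothing is read from the 1.5-fold counts. With normexp (offset 50), siGRB2 minus siRNA negative control had a median of 0.83 and 5 probes 2-fold apart, and siGRB2 minus Pre-miR negative control 0.63 and 6, where the medians over all probes were 1.06 and 1.14. Those all-probe medians were themselves beyond 2-fold, so nothing about the members is read from these 2 counts. Without 7 spots whose local background was over 10 times the median, an alternative chosen after seeing the data, the first count was 0. The number lower on both treated arrays was 0 with normexp and with the percentile over detected probes, and 2 with flagged spots kept and with the deposited values. The number higher on both was 3 with normexp and 2 without the 7 spots. Apart from the normexp run with those spots, whose cause was not tested beyond leaving them out, 0 to 7 of 38 single differences changed sign per setting, each smaller than 0.20. With normexp 11 did. The other medians and counts kept their direction or moved within the scanner error.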
